A study of Mus musculus with 127 samples.

Results

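The nuclear genes of respiratory complexes II to V were followed across 127 single cells of mouse marrow. Members were the rows of the expression table whose gene symbol begins with Sdha, Sdhb, Sdhc, Sdhd, Uqcr, Cox4, Cox5, Cox6, Cox7, Cox8 or Atp5, or is Cyc1, with the row of highest mean level kept for each symbol. The rule found 52 of the 24320 gene symbols, of which 8 belong to complex II, 9 to complex III, 18 to complex IV and 17 to complex V. All cells came from C57BL/6J mice and were labelled as erythroblasts, the nucleated precursors of red cells. The groups were 48 cells with Flvcr deleted, 31 cells of wild-type mice treated with EPO (erythropoietin), which promotes the making of red cells, and 48 wild-type cells. FLVCR1 is a heme exporter. The promoter or cell type driving the deletion, the dose of EPO, and the age and number of the animals are not given in the labels. The labels also give each cell a class, A, B, C or D, which within a group goes broadly with the brightness of its staining for Ter119, a protein on the surface of maturing red cells, with D the brightest by median. The letters do not mark like brightness across groups: the normalized Ter119 value of class B cells was 0.3127 to 0.4937 in Flvcr-deleted, 0.0006 to 0.1972 in EPO-treated and 0.3301 to 0.541 in wild-type cells. Among EPO-treated cells, class D began at 0.3581 and class C reached 0.3659.

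Mitochondrial respiration passes electrons along protein complexes of the inner membrane and uses the proton gradient they build to make ATP. Complex II (succinate dehydrogenase) feeds electrons from the citric acid cycle, complex III (cytochrome bc1) passes them to cytochrome c, complex IV (cytochrome c oxidase) reduces oxygen, and complex V is the ATP synthase. Complexes II, III and IV contain heme, the end step of whose synthesis also takes place in mitochondria, and erythroblasts make heme in bulk before they discard their mitochondria as they become red cells.

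Classes B, C and D held 16, 9 and 5 Flvcr-deleted cells, 11, 9 and 4 EPO-treated cells, and 10, 19 and 13 wild-type cells. All 8 erythroid markers were seen in each group, and at least 3 were detected in each of these 30, 24 and 42 cells, whereas no such cell held 3 markers of granulocytes, lymphoid cells, megakaryocytes or macrophages. At least 1 megakaryocyte marker was detected in 0 Flvcr-deleted, 3 EPO-treated and 22 wild-type cells. The targeted gene, listed as Mfsd7b, was detected in 0 of 30, 0 of 24 and 0 of 42 class B to D cells, so its level does not check the labels. The main comparisons use classes B to D. Class A was left out because earlier results of these data showed it to differ between the groups in globin and granulocyte markers. A gene counts as detected in a cell at 1 RPKM or more (reads per length of transcript, scaled to sequencing depth). The median number of detected genes was 1196.5 in Flvcr-deleted cells (range 645 to 3452), 1385 in EPO-treated cells (638 to 3982) and 2199 in wild-type cells (1151 to 3871). Globin transcripts took a median 90.7%, 64.9% and 69.6% of summed RPKM in the same order of groups. Read depth was estimated from the most common low value of RPKM times annotated transcript length in a cell, assumed to be 1 read. These estimates had medians of 3500000 reads in Flvcr-deleted and 4060000 in wild-type cells. Depth is unknown for EPO-treated cells, whose values were deposited with 2 decimals only. Each group was captured on chips of its own, so chip and group cannot be told apart. Of the EPO-treated cells, 27 were of chip SCP7 and 4 of chip SCP6. The SCP6 cells had the lowest Ter119 values of their classes, including the low end of class B given above. No label names the animal of a cell, so each group counts as 1 sample, groups were not tested against each other, and replicates to check a difference are lacking.

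Levels were compared as log2(RPKM + 1), a scale that compresses changes of genes close to 0. A difference is the mean of the class B, C and D differences, each class weighted alike. A member is called lower or higher where its difference reaches 1 in size and classes B, C and D all go the same way. Of the 52 members, 40 had a mean level of at least 1 over all 127 cells and were compared, as 2540 genes were. The 12 below that level were Sdhaf1, Sdhaf2, Sdhaf3, Uqcrfs1, Cox4i2, Cox6a2, Cox7a1, Cox7b2, Cox8b, Cox8c, Atp5s and Atp5sl. The Rieske protein gene Uqcrfs1 is the one core subunit among them, detected in 6 of 30 Flvcr-deleted cells, 3 of 24 cells after EPO and 14 of 42 wild-type cells. Many subunit genes have near-identical processed copies in the genome, and the treatment of reads with several matches is not given in the sources used here, so all levels of such genes are uncertain to that extent.

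Between Flvcr-deleted and wild-type cells the members did not move as a block. Of the 40 compared, 9 were lower and 6 higher in Flvcr-deleted cells, against 48.3% of all compared genes lower and 3.74% higher. The median member differed by 0.12, while the median of all compared genes differed by -1.08. The sign of the members' median depended on the scaling: equal summed RPKM in all cells gave -0.50, and the same with globins left out of the sum gave 0.38. Set against the median gene, the members stood 1.20 above it, 0.96 and 1.82 under those 2 scalings. The 6 higher members were Uqcrb, Cox6b2, Cox5b, Atp5e, Uqcrq and Atp5l. With cells scaled to equal summed RPKM, Cox5b (0.85), Atp5e (0.64), Uqcrq (0.55) and Atp5l (0.25) lost their calls, and the 2 higher members left had differences of 1.52 (Uqcrb) and 1.91 (Cox6b2). The 9 lower members were Atp5a1, Atp5b, Uqcrc1, Sdhc, Sdha, Atp5d, Cyc1, Uqcrc2 and Sdhd.

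By complex, the median difference was -1.18 for complex II, 0.36 for complex III, 0.67 for complex IV and -0.16 for complex V. With every cell scaled to equal summed RPKM the medians of complexes III and IV turned to -0.43 and -0.07, and that of complex V changed sign in 6 of 16 alternative settings, while complex II was below 0 in all 16. Set against the median gene, however, complex II stood only at -0.11. Of its 5 compared genes 3 were lower, beside 48.3% of all compared genes. The split ran through complexes III and V. In complexes II to IV it went broadly with the kind of subunit, apart from Sdhb (-0.09). In complex V it did not, since Atp5a1 (-3.10) and Atp5e (1.49) belong to the same part of the enzyme. Kind also went with transcript length, 1142 to 3171 nucleotides for compared core subunits and 434 to 1521 for small ones. Which of these the split follows was not tested. The 7 compared core subunits of complexes II and III, which hold the cofactors or form the large frame, had a median difference of -1.60 with 6 lower and 0 higher. Among cells with 1000 to 2000 detected genes that median was 0.41 and none of the 7 was lower. The 17 small or isoform subunits of complexes III and IV had a median of 0.68 with 0 lower and 4 higher, although this median was -0.08 with cells scaled to the same summed RPKM. By the same rule 48.3% of all compared genes were lower and 3.74% higher. Set against the median gene, the core subunits stood at -0.53 and the small ones at 1.75, so the small subunits were further from it. The sets also differed within each class: core subunits had medians of -1.29, -1.63 and -1.13 in classes B, C and D, and small subunits 0.15, 0.87 and 1.13.

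**Figure D1:**
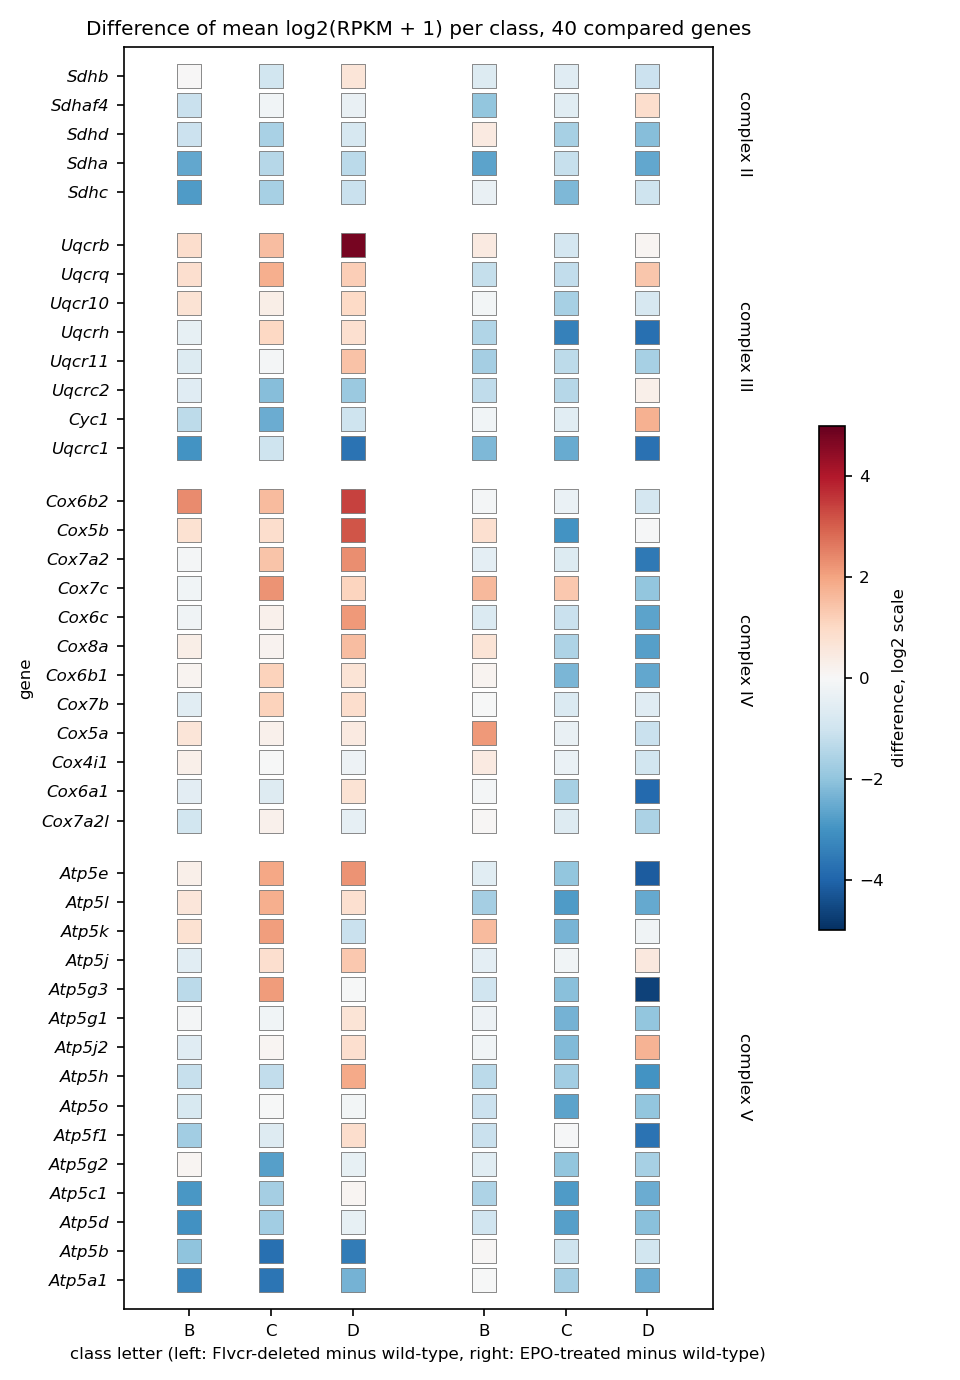
Difference of mean log2(RPKM + 1) for each of the 40 compared genes (rows, grouped by complex) in classes B, C and D (columns), for Flvcr-deleted minus wild-type cells on the left and EPO-treated minus wild-type cells on the right. Red is higher and blue lower than in wild-type cells, and the core genes at the foot of complexes II, III and V are blue on the left while Uqcrb (2.40), Cox6b2 (2.46) and Atp5e (1.49) are red.

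Complex II was the least abundant complex and the one without a higher member. Its genes encode the flavoprotein Sdha, which oxidises succinate, the iron-sulfur protein Sdhb, and the membrane anchors Sdhc and Sdhd, which hold heme b. Sdha ranged over 0, 0 and 180.0 RPKM (lowest, median and highest) in Flvcr-deleted cells, 0, 0 and 131 in EPO-treated cells and 0, 3.88 and 286 in wild-type cells. Transcripts were found in 7 of 30, 6 of 24 and 21 of 42 cells. All 3 groups overlapped and the Flvcr-deleted minus wild-type difference was -1.80.

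Sdhc showed the widest gap in detection of the complex. Flvcr-deleted cells with Sdhc numbered 3 of 30 (10%, Clopper-Pearson 95% interval 2.11 to 26.5%). Those of the EPO-treated group numbered 7 of 24 (29.2%, interval 12.6 to 51.1%), and those of the wild-type group 23 of 42 (54.8%, interval 38.7 to 70.2%). These intervals cover counting error over cells only. Its highest level was 18.3 RPKM in Flvcr-deleted, 99.3 in EPO-treated and 61.7 in wild-type cells, and the Flvcr-deleted minus wild-type difference was -1.88. Sdhd, the other heme b anchor, was detected in 7 of 30, 9 of 24 and 23 of 42 cells and differed by -1.18. Sdhb was the exception among the core genes of complex II, with medians of 4.79 RPKM in Flvcr-deleted, 2.25 in EPO-treated and 0 in wild-type cells and a difference of -0.09. The assembly factor gene Sdhaf4 differed by -0.56.

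The promoters of Sdha and Sdhd are shown because both were lower and hold a consensus of nuclear respiratory factor 1 (NRF-1) before the start. NRF-1 is a factor known to bind promoters of respiratory genes. Uqcrc1, also lower, holds the consensus only after the start and is not shown. The consensus searched was GCGCA, then any base, then GCGC, on both strands, within 300 bases reaching 250 before and 50 after the start (RefSeq, GRCm38.p6, 41 members matched). The capitals below mark the match, and all windows lie on the minus strand. Sdha holds 3 matches, in the windows chr13:74350313-74350354, chr13:74350270-74350311 and chr13:74350241-74350266, and Sdhd holds 1, in chr9:50603903-50603944.
Sdha 1: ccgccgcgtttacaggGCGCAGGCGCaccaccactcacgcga
Sdha 2: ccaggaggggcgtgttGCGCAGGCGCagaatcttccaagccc
Sdha 3: acccgcgcgactcggtGCGCAAGCGC
Sdhd: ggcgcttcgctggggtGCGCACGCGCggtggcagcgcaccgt

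The NRF-1 consensus was in the window of 12 of 41 members (29.3%) and of 5.19% of all 27025 genes with a window. Of the 9 members called lower only 5 had a window, and of the 6 called higher only 4. Among compared members with a window the NRF-1 consensus was found in 3 of 5 called lower, 0 of 4 called higher and 8 of 23 called neither. The core of GABP and other ETS factors, CCGGAAG on either strand, was in 15 of 41 members (36.6%) and in 9.93% of all genes. It was found in 1 of 5 members called lower, 2 of 4 called higher and 9 of 23 called neither. These are matches of letters and say nothing of binding in these cells.

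In complex III the 3 compared catalytic and frame subunits were lower in Flvcr-deleted cells while the small subunits were not. Set against the median gene, their median was -0.53 and that of the 5 small subunits 1.76. Uqcrc1, a large core protein, ranged over 0, 7.60 and 389 RPKM in Flvcr-deleted cells, 0, 4.17 and 782 in EPO-treated cells and 0, 80.7 and 733 in wild-type cells. It was detected in 17 of 30, 13 of 24 and 33 of 42 cells and its Flvcr-deleted minus wild-type difference was -2.57. In class D, 4 of 5 Flvcr-deleted cells had 0 RPKM and the other 31.8, the 4 EPO-treated cells had between 0 and 13.1, and the 13 wild-type cells had a median of 31.2 (range 0 to 338). Uqcrc2, its partner, was detected in 9 of 30, 8 of 24 and 19 of 42 cells and differed by -1.53.

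Cyc1 encodes cytochrome c1, the subunit that carries heme c and hands electrons to cytochrome c. Its level ranged over 0, 0 and 377 RPKM in Flvcr-deleted cells, 0, 11.3 and 786 in EPO-treated cells and 0, 17.7 and 155 in wild-type cells. It was detected in 11 of 30, 14 of 24 and 29 of 42 cells, with a Flvcr-deleted minus wild-type difference of -1.60. Cyc1 was the core gene that separated Flvcr-deleted from EPO-treated cells, at -1.94, and was called lower there too. Class D showed 4 Flvcr-deleted cells at 0 and 1 at 29.2 RPKM, EPO-treated cells at 0, 12.0, 24.9 and 111 RPKM, and wild-type cells between 0 and 50.6 with a median of 2.90.

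Uqcrb, a small subunit on the matrix side of complex III, showed the reverse. Its level ranged over 0.403, 217 and 676 RPKM in Flvcr-deleted cells, 0, 98.2 and 753 in EPO-treated cells and 0, 63.4 and 266 in wild-type cells. It was detected in 29 of 30, 18 of 24 and 31 of 42 cells. The class D cells stood furthest apart. Flvcr-deleted cells had 50.5, 126, 199, 257.5 and 567.6 RPKM, EPO-treated cells 0, 0, 13.2 and 171, and wild-type cells a median of 0.928 with a range of 0 to 205. The class D groups still overlapped, since 1 EPO-treated cell and wild-type cells 14, 20, 21 and 46 lay above the lowest Flvcr-deleted cell. The Flvcr-deleted minus wild-type difference was 0.88, 1.54 and 4.79 in classes B, C and D and 2.40 over them, and lay between 1.13 and 4.37 in all 16 alternative settings.

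Uqcrq, another small subunit, had medians of 102 RPKM in Flvcr-deleted, 29.8 in EPO-treated and 36.6 in wild-type cells and differed by 1.31. The hinge protein gene Uqcrh, which helps cytochrome c1 meet cytochrome c, had medians of 196, 23.1 and 105 RPKM. Its Flvcr-deleted minus wild-type difference was 0.48 and its EPO-treated minus wild-type difference -2.87, the lowest of complex III. Uqcr10 and Uqcr11 differed by 0.69 and 0.23 between Flvcr-deleted and wild-type cells.

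Complex IV held the members with the highest levels, and none of its genes was lower in Flvcr-deleted cells. Cox6a1 and Cox4i1, both nuclear subunits around the mitochondrially encoded core, led the set with means of 531.4 and 496.3 RPKM in Flvcr-deleted cells, 419.0 and 549.5 in EPO-treated cells, and 432.8 and 356.4 in wild-type cells. Cox4i1, the subunit that binds ATP and adjusts the activity of the enzyme, ranged over 14.8, 456 and 1518 RPKM in Flvcr-deleted cells, 0, 476 and 1900.1 in EPO-treated cells and 10.4, 317 and 1266 in wild-type cells. It was detected in 30 of 30, 23 of 24 and 42 of 42 cells, and its difference was 0.00 between Flvcr-deleted and wild-type cells and -0.28 between EPO-treated and wild-type cells.

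Cox5b, the zinc-binding subunit, was higher in Flvcr-deleted cells, though not past a difference of 1 with cells scaled to equal summed RPKM (0.85). Its level ranged over 0, 96.3 and 935 RPKM in Flvcr-deleted cells, 0, 15.2 and 407 in EPO-treated cells and 0, 48.0 and 423 in wild-type cells. The Flvcr-deleted minus wild-type difference was 0.76, 0.87 and 3.15 in classes B, C and D and 1.59 over them. In class D the Flvcr-deleted cells had 65.97, 157, 205, 309 and 427 RPKM, the EPO-treated cells 6.23, 7.75, 13.95 and 208, and the wild-type cells a median of 59.1 with a range of 0 to 347. Of the EPO-treated cells, 3 lay below every Flvcr-deleted cell of that class.

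Cox7a2, a small membrane subunit in its widely expressed isoform, had medians of 133 RPKM in Flvcr-deleted cells, 72.1 in EPO-treated cells and 56.1 in wild-type cells. It differed by 1.22 between Flvcr-deleted and wild-type cells but by -0.09 in class B, so it was not called. In class D the lowest Flvcr-deleted cell had 51.2 RPKM and the highest EPO-treated cell 29.7, so these 2 groups did not overlap there, with 5 and 4 cells. How many of all compared genes lack overlap in cells this few was not counted, so the lack of overlap is not a trait of this gene. Cox7c likewise differed by 1.06 over the classes and by -0.17 in class B. Apart from Cox6b2, described with the isoforms, the remaining differences between Flvcr-deleted and wild-type cells in complex IV lay between -0.38 (Cox7a2l, a factor that joins complexes into supercomplexes) and 0.74 (Cox6c).

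**Figure D2:**
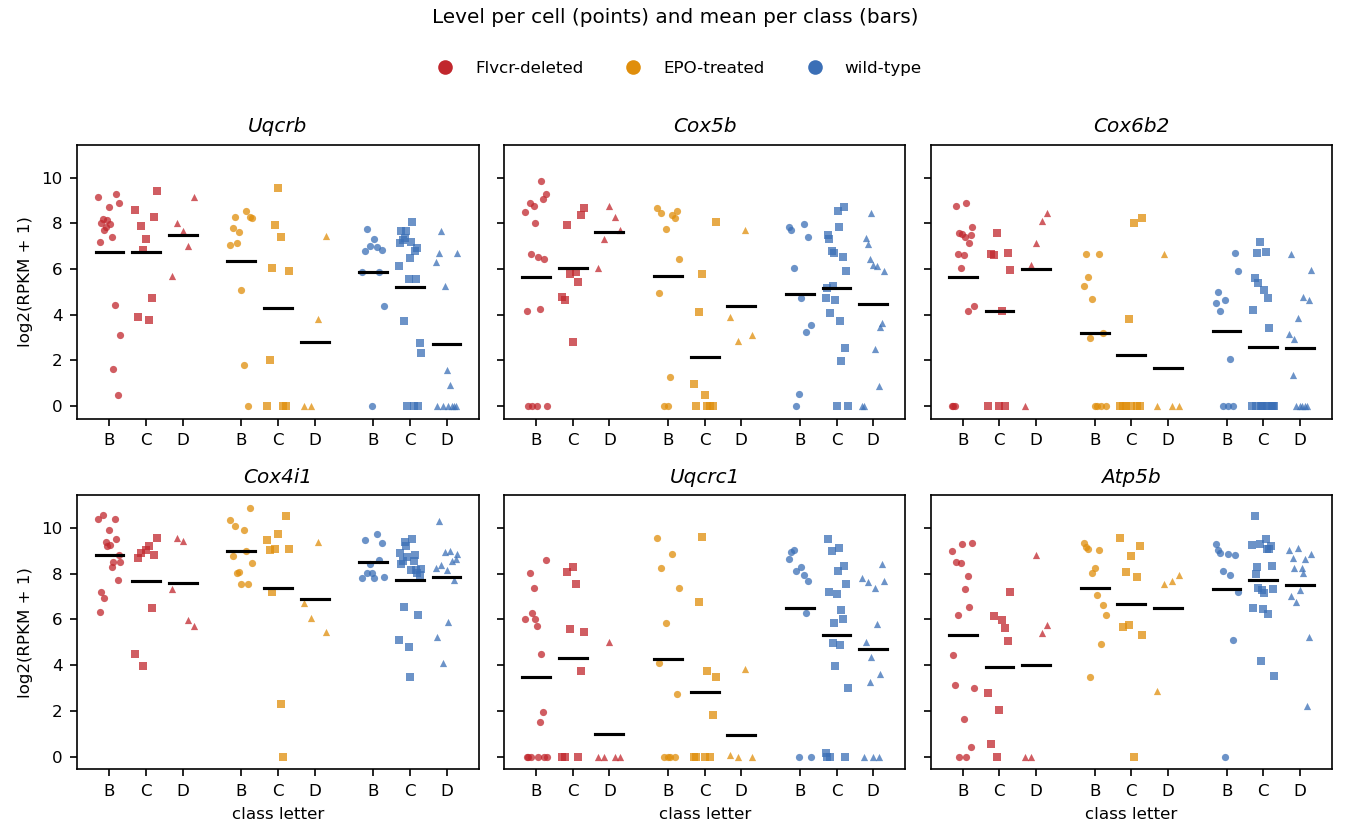
Level per cell, as log2(RPKM + 1), of 6 members in classes B, C and D of Flvcr-deleted (red, left), EPO-treated (orange, middle) and wild-type cells (blue, right), with black bars for class means. The 5 class D Flvcr-deleted cells have 50.5 to 567.6 RPKM of Uqcrb, while 4 of the same 5 cells have 0 RPKM of Uqcrc1.

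Several subunits of complex IV exist as isoforms known to be restricted to tissues, and most of the restricted ones were listed at 0. Cox4i2, Cox7a1, Cox7b2, Cox8b and Cox8c were at 0 RPKM in all 127 cells, as was the complex II assembly factor gene Sdhaf1. Cox6b2, known as a testis isoform of the subunit that joins the monomers of the enzyme's dimer, was detected in all 3 groups. It ranged over 0, 98.2 and 467 RPKM in Flvcr-deleted cells, 0, 0 and 303 in EPO-treated cells and 0, 7.27 and 146 in wild-type cells, and was detected in 23 of 30, 11 of 24 and 24 of 42 cells. Its Flvcr-deleted minus wild-type difference was 2.46, with 2.35, 1.60 and 3.41 in classes B, C and D, and lay between 1.68 and 3.16 in all 16 alternative settings.

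The widely expressed isoform Cox6b1 had medians of 137 RPKM in Flvcr-deleted, 66.9 in EPO-treated and 49.7 in wild-type cells and a Flvcr-deleted minus wild-type difference of 0.67. Cox6b2 made up 38.5% of the mean RPKM of both isoforms in Flvcr-deleted cells, 24.5% in EPO-treated cells and 24.4% in wild-type cells. Its level exceeded that of Cox6b1 in 11 of 30 Flvcr-deleted cells, or 36.7% with an interval of 19.9 to 56.1%. The same held for 4 of 24 cells after EPO (16.7%, interval 4.74 to 37.4%) and for 7 of 42 wild-type cells (16.7%, interval 6.97 to 31.4%). These exact 95% intervals overlap and cover counting error over cells only. The neighbouring gene Suv420h2 had a median of 0 RPKM in each group and was detected in 5 of 30, 5 of 24 and 10 of 42 cells. Cox6b2 was 1 of 9 members listed in several rows of the table, and the row with the highest mean was used.

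The 250 bases before the RefSeq start of both isoforms are printed (GRCm38.p6, minus strand) because the pair encodes the same subunit and differed in level. Capitals mark the ETS core, which reads CTTCCGG on this strand. Cox6b2 lies at chr7:4753095-4753344 and Cox6b1 at chr7:30626115-30626364. The Cox6b1 stretch holds 1 such match, and the Cox6b2 stretch holds neither that nor the NRF-1 consensus.
Cox6b2: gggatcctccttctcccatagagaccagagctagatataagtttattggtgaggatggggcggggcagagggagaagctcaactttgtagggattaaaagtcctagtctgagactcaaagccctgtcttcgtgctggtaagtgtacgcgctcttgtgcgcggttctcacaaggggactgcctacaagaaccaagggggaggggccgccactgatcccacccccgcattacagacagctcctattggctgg
Cox6b1: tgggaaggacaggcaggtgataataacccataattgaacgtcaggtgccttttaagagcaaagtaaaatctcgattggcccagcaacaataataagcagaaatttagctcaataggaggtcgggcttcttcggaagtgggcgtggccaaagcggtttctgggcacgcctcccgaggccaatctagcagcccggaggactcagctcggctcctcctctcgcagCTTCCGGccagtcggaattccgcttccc

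Cox6a2, known as the heart and muscle isoform of Cox6a1, was found in 5 of 30 Flvcr-deleted cells, a share of 16.7% with an exact 95% interval of 5.64 to 34.7%. No EPO-treated cell (0 of 24, upper limit 14.2%) and no wild-type cell (0 of 42, upper limit 8.41%) held it. Here too the limits cover counting error over cells only. All 5 cells with Cox6a2 were of class B, 4 with 35.6 to 86.6 RPKM and the remaining cell with 202 RPKM. The 4 stand apart in other ways: globins took 0.32 to 2.71% of their summed RPKM, they had 2455 to 3452 detected genes, and 3 to 5 of the 8 erythroid markers. None of them held a marker of the other lists. They also had high levels of most members, such as 241.7 RPKM of Atp5a1 in cell 16 and 651 RPKM of Atp5b in cell 40. Without them, the count of higher members in Flvcr-deleted against wild-type cells was 2 in place of 6, and the median difference of the members -0.12 in place of 0.12. The differences of Uqcrb and Cox6b2 were then 2.21 and 2.24, and those of Atp5a1 and Atp5b -3.58 and -3.49.

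In complex V the head and central stalk were split. Atp5a1 and Atp5b encode the alpha and beta subunits that form the catalytic ring, and they had the largest differences of all compared members between Flvcr-deleted and wild-type cells. Atp5a1 ranged over 0, 1.08 and 431 RPKM in Flvcr-deleted cells, 0, 93.6 and 600.1 in EPO-treated cells and 0, 127 and 535 in wild-type cells. Cells with the transcript numbered 15 of 30, 18 of 24 and 37 of 42 cells. The Flvcr-deleted minus wild-type difference was -3.10, with -3.30, -3.65 and -2.36 in classes B, C and D. The EPO-treated minus wild-type difference was -1.39.

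Atp5b ranged over 0, 44.7 and 651 RPKM in Flvcr-deleted cells, 0, 219.6 and 761 in EPO-treated cells and 0, 289 and 1459 in wild-type cells. Detection reached 23 of 30, 23 of 24 and 41 of 42 cells. It differed by -3.09 between Flvcr-deleted and wild-type cells and by -2.44 between Flvcr-deleted and EPO-treated cells, but by -0.65 between EPO-treated and wild-type cells, where it was not called. In class D, Flvcr-deleted cells had 0, 0, 41.7, 53.9 and 450 RPKM, EPO-treated cells 6.34, 184, 207 and 248, and wild-type cells a median of 304 (range 3.59 to 557). The groups overlapped. Both genes were below 0 in Flvcr-deleted minus wild-type cells in all 16 alternative settings.

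Of the central stalk, Atp5d (delta) was lower by the same rule at -1.72 and Atp5c1 (gamma) differed by -1.49 without the same sign in every class. Atp5e (epsilon), the smallest subunit of the head and stalk, went the other way. It ranged over 0, 121 and 726 RPKM in Flvcr-deleted cells, 0, 0 and 355 in EPO-treated cells and 0, 58.1 and 234 in wild-type cells, and was detected in 29 of 30, 11 of 24 and 36 of 42 cells. Its difference was 1.49 for Flvcr-deleted minus wild-type, -2.23 for EPO-treated minus wild-type and 3.72 for Flvcr-deleted minus EPO-treated cells. In class D all 5 Flvcr-deleted cells held between 18.8 and 334 RPKM and all 4 EPO-treated cells were at 0. The share of all compared genes that part these few cells in the same way was not counted.

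Among membrane and side stalk subunits, Atp5l (subunit g) ranged over 2.37, 202 and 653 RPKM in Flvcr-deleted cells, 0, 32.2 and 491 in EPO-treated cells and 0, 82.2 and 267 in wild-type cells, with a Flvcr-deleted minus wild-type difference of 1.07. The side stalk genes Atp5f1, Atp5h, Atp5j and Atp5o differed by -0.51, -0.16, 0.55 and -0.33. The proton-carrying c ring is encoded by 3 genes for the same mature protein. Their mean RPKM was split 54.3% to Atp5g1, 7.20% to Atp5g2 and 38.5% to Atp5g3 in Flvcr-deleted cells, 49.1%, 8.85% and 42.1% in EPO-treated cells, and 39.3%, 14.9% and 45.8% in wild-type cells. Atp5g1 and Atp5g3 differed by 0.14 and 0.26 between Flvcr-deleted and wild-type cells, and Atp5g2, with a median of 0 RPKM in Flvcr-deleted, 0 in EPO-treated and 3.48 in wild-type cells, by -1.03.

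Atp5e and Atp5l are the higher members whose promoter windows hold the ETS core, and those windows are shown with the match in capitals, for Atp5l the upstream one of 2 matches (RefSeq, GRCm38.p6, minus strand, chr2:174464181-174464219 and chr9:44920932-44920970).
Atp5e: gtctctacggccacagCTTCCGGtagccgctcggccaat
Atp5l: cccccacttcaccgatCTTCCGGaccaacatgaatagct

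The members' share of each cell's RPKM does not depend on scaling, and was taken without globins because their share differed between groups. All 52 members together took a median of 3.29% in Flvcr-deleted cells (range 1.16 to 4.62%), 2.88% in EPO-treated cells (0.638 to 4.59%) and 1.88% in wild-type cells (0.614 to 3.29%). By complex the medians were 1.29%, 1.05% and 0.664% for complex IV, 1.31%, 1.12% and 0.823% for complex V, 0.591%, 0.367% and 0.295% for complex III, and 0.0225%, 0.0197% and 0.0584% for complex II, each in Flvcr-deleted, EPO-treated and wild-type cells. Complex II thus ordered the groups differently from the rest. With globins counted in the total, the order of the groups changed, to a median of 0.290% in Flvcr-deleted, 1.04% in EPO-treated and 0.600% in wild-type cells.

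Within single cells the small subunits exceeded the core subunits by more in Flvcr-deleted cells. The mean log2 level of the 17 small subunits minus that of the 7 core subunits had a median of 4.08 in Flvcr-deleted cells (range 1.34 to 6.25), 2.05 in EPO-treated cells (0.19 to 4.83) and 1.75 in wild-type cells (-0.11 to 4.12). In class D the 5 Flvcr-deleted cells spanned 3.76 to 5.82 and the 4 EPO-treated cells 0.85 to 2.64, without overlap, while wild-type cells reached 4.12. Gaps between other sets of genes were not measured. Complex III alone, with 5 small and 3 core subunits, repeats part of the small and core sets. In class D its gap was 5.30 to 6.51 in Flvcr-deleted cells, -1.19 to 3.28 in EPO-treated cells and -0.17 to 4.14 in wild-type cells. Flvcr-deleted cells of that class thus lay above all others. However, all of them had 0 RPKM of Uqcrc2 and most had 0 of Uqcrc1 and Cyc1. Their gap is therefore mostly the level of the small subunits. Over classes B to D the groups overlapped. Within a group the gap followed the number of detected genes in wild-type cells (Spearman's rho -0.49, n = 42 cells) more than in Flvcr-deleted (0.06, n = 30) or EPO-treated cells (0.29, n = 24), and cells of a group share their chip.

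**Figure D3:**
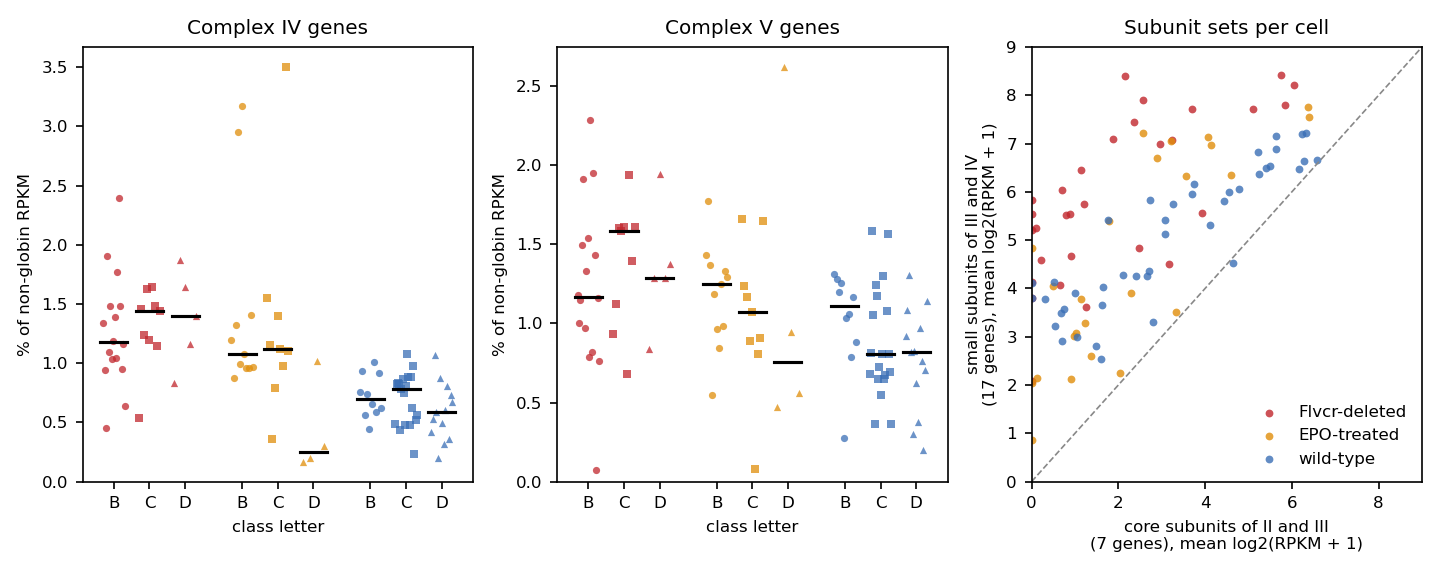
Share of non-globin RPKM in complex IV and complex V genes per cell by group and class (left and middle, bars are medians), and mean log2 level of the 17 small subunits against that of the 7 core subunits per cell (right, dashed line marks equality). Flvcr-deleted cells (red) have the highest complex IV median, 1.29% against 0.664% in wild-type cells (blue), and lie furthest above the line.

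Mean levels of the members followed the number of detected genes in each group (rho 0.90 in Flvcr-deleted, 0.91 in EPO-treated and 0.96 in wild-type cells, n = 30, 24 and 42), so the comparison was repeated in those cells in which 1000 to 2000 genes were detected. That left 12 Flvcr-deleted, 12 EPO-treated and 18 wild-type cells with medians of 1278, 1385 and 1566 detected genes, and with as few as 2 cells in a class. The members' share of non-globin RPKM followed detected genes in wild-type cells (rho 0.86) more than in Flvcr-deleted (0.41) or EPO-treated cells (0.07). The range therefore keeps wild-type cells low in members. Their median share was 1.31% in the range and 1.88% over all, beside 3.46% and 3.29% in Flvcr-deleted cells. In this range 26 of the 40 members were higher and 0 lower in Flvcr-deleted than in wild-type cells, against 16% and 19.1% of all compared genes. The median difference was 1.62 for members and -0.09 for all genes. It was -0.03 for complex II, 1.82 for complex III, 2.17 for complex IV and 1.33 for complex V.

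Most core genes did not stand below wild type in this range. Uqcrb differed by 4.37, Cox5b by 4.27, Atp5g1 by 3.95 and Atp5e by 3.47. Atp5a1, Atp5b and Sdhc were below 0 at -0.82, -0.96 and -1.34, and Sdha was at -0.03. Uqcrc1, Uqcrc2, Cyc1, Sdhd and Atp5d changed sign, to 0.47, 0.95, 0.41, 0.17 and 1.03. The gap between small and core subunits within cells had medians of 4.89 in Flvcr-deleted, 2.70 in EPO-treated and 2.30 in wild-type cells.

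**Figure D4:**
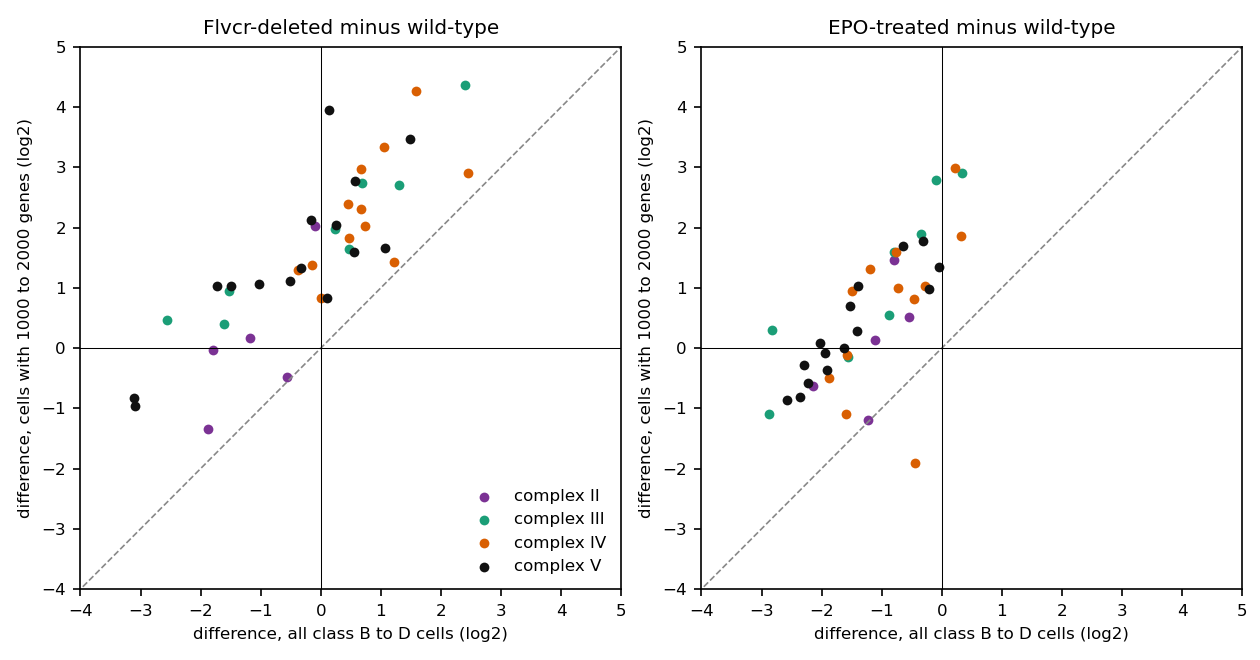
Difference of each of the 40 members, on the log2 scale, for Flvcr-deleted minus wild-type (left) and EPO-treated minus wild-type cells (right). The horizontal axis uses all class B to D cells and the vertical axis cells with 1000 to 2000 detected genes. On the left most members lie above the line of equality, and Atp5a1 (-0.82), Atp5b (-0.96) and Sdhc (-1.34) are among the few below 0 on the vertical axis.

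The difference between Flvcr-deleted and wild-type cells was lower for longer transcripts. Over the 40 members the Flvcr-deleted minus wild-type difference had a Spearman's rho of -0.69 with annotated transcript length, and over all 2510 compared genes with a length it was -0.21. The median difference was 0.71 for the 12 members of up to 600 nucleotides, 0.00 for the 17 up to 1200, -1.53 for the 7 up to 2400 and -1.84 for the 4 longer ones. The longest member, Atp5g1 with an annotated 4715 nucleotides, went against this with a difference of 0.14. The same bins of other genes had medians of 0.44, -0.63, -1.39 and -1.16, with 102, 459, 804 and 1105 genes. For EPO-treated minus wild-type cells rho was -0.00 over members and 0.06 over all compared genes, and for Flvcr-deleted minus EPO-treated cells -0.63 and -0.30. The part of transcript length in these differences was not tested. These correlations are across genes of the same libraries, and genes are not replicates.

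**Figure D5:**
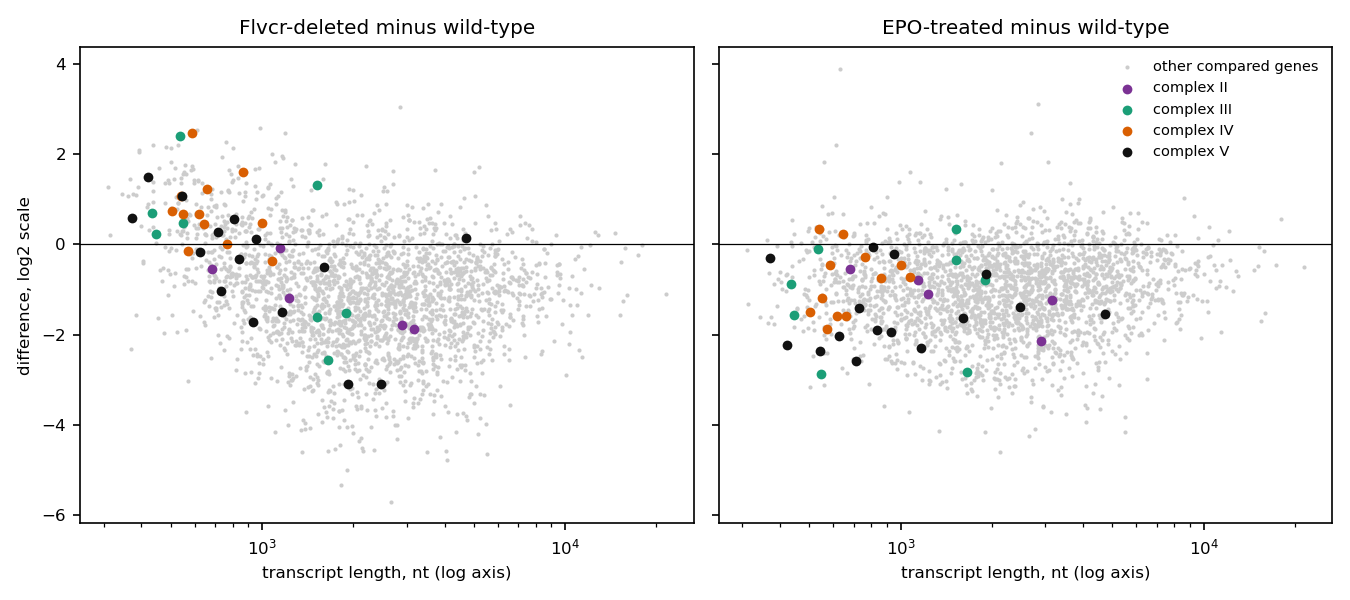
Difference on the log2 scale against annotated transcript length (log axis, nucleotides) for the 40 members, coloured by complex, over all other compared genes in grey. The left panel shows Flvcr-deleted minus wild-type and the right panel EPO-treated minus wild-type cells. On the left longer members tend to have lower differences (rho -0.69), with Atp5a1 and Atp5b lowest and Cox6b2 and Uqcrb highest, though the longest, Atp5g1, is at 0.14. On the right rho over members is -0.00.

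Between EPO-treated and wild-type cells the members differed about as much as other genes. Of 40 members 19 were lower and 0 higher in EPO-treated cells, against 42% and 0.512% of all compared genes, and the median was -1.21 for members and -0.99 for all genes. Core and small subunits had medians of -1.10 and -0.76. Complex V held 11 of the 19, with a median of -1.63, and complexes II, III and IV had medians of -1.10, -0.84 and -0.74. The lowest were Uqcrh at -2.87, Uqcrc1 at -2.82, Atp5g3 at -2.58, Atp5l at -2.37 and Atp5c1 at -2.29. The members' median was -0.44, -1.59 and -1.83 in classes B, C and D, beside -0.68, -1.13 and -1.13 for all compared genes. Among cells with 1000 to 2000 detected genes 2 members were lower and 8 higher, against 14% and 7.99% of all compared genes, and the median was 0.54. Both contrasts with wild-type cells use the same wild-type cells.

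Set directly against EPO-treated cells, Flvcr-deleted cells had 13 higher and 2 lower members, against 7.76% and 8.86% of all compared genes. The median difference was 0.91 for members and -0.12 for all genes. The 2 lower members were Atp5b (-2.44) and Cyc1 (-1.94). The higher members included Atp5e (3.72), Atp5l (3.44), Uqcrh (3.35), Cox6b2 (2.91), Cox7a2 (2.81), Uqcrb (2.51), Cox6b1 (2.25) and Cox6c (2.24). Complexes III and IV had medians of 1.61 and 1.80, complex V 0.89 and complex II -0.01. The difference was near 0 in class B (median -0.05) and larger in classes C (1.20) and D (1.78). Without the 4 Flvcr-deleted cells low in globin, 6 members were higher. With 1000 to 2000 detected genes, 16 members were higher and 2 lower, against 9.92% and 7.64% of all compared genes.

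Across class letters the members had lower levels in class D than in class B, by amounts that differed between groups. The median class D minus class B difference was -0.26 in Flvcr-deleted cells, -2.90 in EPO-treated cells and -1.45 in wild-type cells, where the median of all compared genes was -0.43, -1.36 and -0.90. A difference of -1 or below was found for 13, 32 and 30 of the 40 members, and for 30.6%, 58.3% and 46.1% of all compared genes. In EPO-treated cells all 12 compared complex IV genes were among them. The Flvcr-deleted value changed sign with the cells used, to 0.38 without the 4 cells low in globin. Detected genes also differed by class, with medians in classes B, C and D of 1235, 1179 and 1214 in Flvcr-deleted cells, 1771, 1145 and 1088 in EPO-treated cells and 3034, 2152 and 1891 in wild-type cells. Their part in the class differences was not tested.

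Class A, with 18 Flvcr-deleted, 7 EPO-treated and 6 wild-type cells, was a mixed class. Its cells held a median of 3.5, 2 and 2.5 of the 8 erythroid markers and 0, 1 and 2 of the 12 granulocyte and monocyte markers, and a median of 20.2%, 1.26% and 0.0139% of RPKM in globins. The median class A minus class B difference of the members was -2.43 in Flvcr-deleted, -1.65 in EPO-treated and -0.37 in wild-type cells, beside -0.84, -0.91 and -0.51 for all compared genes. The labels split the Flvcr-deleted class A cells by a suffix, d or a, whose meaning they do not give, with 9 cells each. The d cells held 0 to 5 of the 52 members and 169 to 864 detected genes, and the a cells 16 to 43 members and 796 to 3069 genes. Taken apart, the members' median against class B was -5.04 in d cells and 0.09 in a cells, beside -1.52 and -0.08 for all compared genes. A median of 23 members was detected per class A cell in EPO-treated and 34.5 in wild-type cells, beside 1464 and 2878 detected genes.

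Other mitochondrial gene lists are given for context, with the members called between Flvcr-deleted and wild-type cells. The counts stand against 48.3% of all compared genes lower and 3.74% higher, and a median of -1.08 over all of them. Complex I had 9 lower (23.7%) and 0 higher of 38 compared genes and a median of -0.22. Genes of the citric acid cycle and of pyruvate dehydrogenase had 9 lower and 0 higher of 12 and a median of -1.53. Those furthest below 0 were Mdh2 (-3.25), the pyruvate dehydrogenase gene Pdhb (-3.08) and Cs (-2.52). Carriers and import had 8 lower and 0 higher of 14 and a median of -1.29, with the ADP/ATP carrier Slc25a5 at -3.11. Mitochondrial ribosomal proteins had 8 lower (17.8%) and 0 higher of 45 and a median of -0.47. Complex IV assembly and copper delivery had 2 lower and 0 higher of 6, Cox11 (-1.90) and Coa3 (-1.11), while Cox10 and Cox15, which make heme A for complex IV, were detected in 3, 0 and 3 and in 0, 1 and 1 of 30 Flvcr-deleted, 24 EPO-treated and 42 wild-type cells.

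Cytochrome c itself (Cycs) had medians of 15.5 RPKM in Flvcr-deleted, 7.89 in EPO-treated and 12.3 in wild-type cells and differed by 0.13 between Flvcr-deleted and wild-type cells. The ATP synthase inhibitor gene Atpif1 had medians of 176, 122 and 149 RPKM and differed by 0.20. Usmg5, a small protein of the ATP synthase membrane part that the name rule does not cover, was higher at 1.08, with medians of 109, 103 and 39.9 RPKM. Outside mitochondria, cytosolic ribosomal proteins, which also have short transcripts, had 2 lower and 52 higher of 80 compared genes and a median of 1.21, and proteasome genes had 23 lower and 0 higher of 33 and a median of -1.66. In the range of 1000 to 2000 detected genes the cytosolic ribosomal median was 3.59.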

How the data were processed

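Cells were captured on a microfluidic chip, imaged for Ter119 and sequenced after SMART-Seq amplification and Nextera XT library preparation, per the labels' protocols. The authors deposited 1 table of RPKM values with 34898 transcript rows. The submitters' processing notes name TopHat2 2.0.9 and the build mm9. Counting, strand, multi-mapped reads and filters: not given in the sources used here. Of the columns, 4 belong to no sample and were not used. RPKM was taken as log2(RPKM + 1). Transcript lengths came from GENCODE vM21, another build, and promoters from RefSeq (GRCm38.p6). No cell was removed beyond the classes named, and doublets were not called. Named genes were, in each complex, the 4 with the largest Flvcr-deleted minus wild-type and the 2 with the largest EPO-treated minus wild-type difference, called members up to 8 a direction, heme subunits and isoform families, with a few genes from other lists; all other genes named were chosen after their values were seen. Members and lists were chosen with earlier results of these data known. Scripts (Python 3.11.15, numpy 2.4.6, pandas 2.3.3, scipy 1.17.1, matplotlib 3.10.9) were tested on simulated data. Alternatives changed pseudocount, filter, class weights, scaling, rows, cells and ratio.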

Additional observations from a re-analysis of the deposited data

Results flagged for a closer look

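A wild-type class A cell, number 28, stood apart from the other 5 cells of its class and group in the mean log2 level of the members, at 7.155 where the 6 cells ranged from 4.77 with a median of 5.17. It was the highest cell, and its gap to the next, divided by the range, passed Dixon's 95% critical value. Of 21 sets of cells tested in this way it was the 1 that did so, and chance marks about 1 in 20. The main comparisons do not use class A.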

How the results depend on the processing

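No paired analysis was possible because cell numbers name single cells and no result comes from a test. Between Flvcr-deleted and wild-type cells, the 9 lower members became 4 with a pseudocount of 10 and 0 among cells with 1000 to 2000 detected genes. The 6 higher members became 1 with all 4 classes, 11 without class B, 2 with every cell scaled to 1 sum of RPKM, 14 with quantile normalization, 11 with the log2 ratio of mean RPKM, 26 with 1000 to 2000 detected genes, 2 without the cells low in globin and 17 without cells of under 1000 detected genes, an alternative added after seeing the data. Between EPO-treated and wild-type cells, the 19 lower members became 8 with a pseudocount of 10, 4 with the ratio and 2 in the range. The 0 higher members became 1 without class D, 2 with quantile normalization, 2 with the ratio, 8 in the range and 2 without cells of under 1000 detected genes, and the median of -1.21 reversed to 0.54 in the range. Between Flvcr-deleted and EPO-treated cells, the 13 higher members became 4 with all 4 classes, 23 without class B, 5 scaled to 1 sum and 6 without the cells low in globin, and the 2 lower became 1 without cells of under 1000 detected genes. The members' share became 0.29% in Flvcr-deleted, 1.04% in EPO-treated and 0.60% in wild-type cells with globins in the sum, and 4.48% in Flvcr-deleted cells without globins and ribosomal protein genes. In the range, called genes reversed to 1.03 (Atp5d), 0.41 (Cyc1), 0.17 (Sdhd), 0.47 (Uqcrc1) and 0.95 (Uqcrc2) for Flvcr-deleted minus wild-type cells, and to 1.04 (Atp5a1), 0.70 (Atp5g1), 0.29 (Atp5g2) and 0.30 (Uqcrc1) for EPO-treated minus wild-type cells. The range holds fewer cells, and the cause of the reversals was not tested. Of the other values of the summary results, 218 stayed within the cells' spread or within 1.5 times the count. Levels near 0 RPKM in cells with few detected genes limit the precision of every core subunit, and estimated depth is unknown for EPO-treated cells.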
